A study of Mus musculus with 21 samples.

Results

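Leukocyte lineage markers are genes whose products identify white blood cells or 1 branch of them, and 37 of the 43193 gene symbols in the authors' merged annotation were examined as such. They were chosen by name from textbook knowledge of leukocytes, with earlier results of these data known, and a locus counted for a gene when it held an annotated exon of that gene. Each of the 37 genes lay at 1 locus. They comprised 5 pan-leukocyte genes, 7 T cell genes, 2 NK cell genes, 4 B cell genes, 12 genes of mononuclear phagocytes (monocytes, macrophages and dendritic cells), 3 Fc receptor and adaptor genes and 4 granulocyte genes.

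RNA came from circumvallate taste buds, the sensory organs in the trench walls of a papilla at the back of the tongue, taken by dissection. All mice were wild type, of the inbred strain C57BL/6J, and 20 to 24 weeks old. The labels give 21 libraries, 7 each from mice called Hungry, Satiated and Ad lib; how long food was removed is not given in the sources used here. What was deposited repeats identical values for 3 conditions, with 0 of 32052 loci differing in any of 5 value columns, so no gene has a Hungry, a Satiated or an Ad lib level and no contrast of feeding states was possible. Every level below is a mean of scaled fragments, computed by the authors from all libraries after dividing each by a size factor that brings different depths to a common scale. Fragments are called compatible when they match an annotated transcript, and total fragments are all those at a locus. Summed over loci, a mean library held 21881979 compatible and 23769781 total fragments. Spread is given as the coefficient of variation (CV, standard deviation over mean) from the authors' variance, because no value per library was used here. The libraries entered that variance in sets of 8, 7 and 6, as loci with fragments in a single library show, while the labels give 7 to each group. Differences between these sets are not in the variance, so a low CV describes evenness within sets and does not measure it across all libraries.

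Leukocytes enter barrier tissues such as the oral mucosa and remain there as resident cells. Macrophages engulf debris and present antigen, Langerhans cells sample the epithelium, T and B cells carry clonal antigen receptors, and granulocytes arrive mostly during inflammation. Lineages are told apart by receptor chains and surface proteins made in 1 branch, whereas proteins such as the phosphatase CD45 are made by nearly all leukocytes. In RNA from whole tissue, fewer cells of a type and less RNA per cell cannot be told apart. The labelled tissue matched its defining markers: 12 of 12 taste cell genes were detected, against 67.5% of protein-coding symbols. Of these 12, 10 lay at loci without another protein-coding gene. At single-gene loci they ran between Krt8, a keratin of taste bud cells, with 37058 fragments and Car4, a carbonic anhydrase of sour-sensing cells, with 1089.

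Detection, set at a mean of at least 10 compatible fragments, was reached by 15 of the 37 leukocyte markers, against 67.5% of 21616 protein-coding symbols measured alike. At a mean of at least 1 fragment 26 markers passed, against 75.5% of protein-coding symbols. At 50 fragments 7 did, against 60.1%. The median level of the 37 markers was 8.31 compatible fragments, and that of protein-coding symbols was 214. Leukocyte markers were therefore mostly low: 11 lay under 1 fragment, 11 between 1 and 10, 8 between 10 and 50 and 7 above. Lcp1 and the loci of Cx3cr1 and Csf1r were far above the other markers.

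Lineages differed in how far they reached above these limits. All 5 pan-leukocyte genes were detected, as were 7 of 12 mononuclear phagocyte genes and 1 of 3 Fc receptor and adaptor genes. Of the lymphocyte genes, 1 of 7 T cell genes, 1 of 4 B cell genes and 0 of 2 NK cell genes were detected, and of the granulocyte genes 0 of 4. With at least 1 fragment the T cell count stayed at 1, while all 12 mononuclear phagocyte genes and all 3 Fc receptor genes passed. Median levels were 32.0 fragments for mononuclear phagocyte genes, 26.5 for pan-leukocyte genes, 9.76 for Fc receptor and adaptor genes, 1.40 for B cell genes, 1.36 for NK cell genes, 0.719 for granulocyte genes and 0.520 for T cell genes. The last 4 medians lie close together and rest on few genes with few fragments each, so their order cannot be read. At loci of 1 gene symbol the medians were 35.4 for B cell genes, 25.4 for pan-leukocyte genes, 9.03 for Fc receptor and adaptor genes and 8.54 for mononuclear phagocyte genes, which turns the order of the upper groups; the B cell value then rests on Cd79b and Cd79a.

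**Figure D1:**
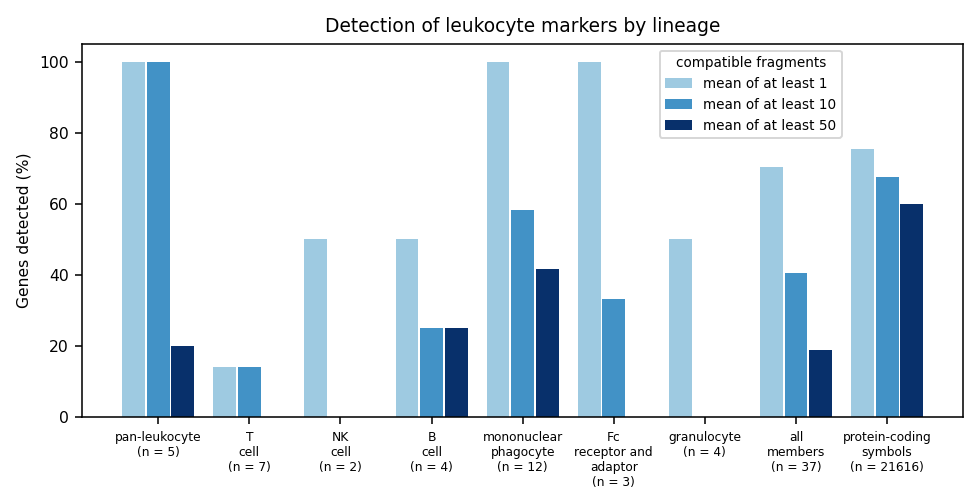
Share of genes detected (%) in each leukocyte lineage, for all 37 markers and for 21616 protein-coding symbols, at means of at least 1, 10 and 50 compatible fragments. Among lineages, pan-leukocyte and mononuclear phagocyte genes have the tallest bars at 10 fragments; NK cell and granulocyte genes have none there.

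Gene identity was clear at most loci. The locus held no other gene symbol for 28 of the 37 markers. For 6 others (Ptprc, Lcp1, Cd22, Mrc1, Fcgr3 and Mpo) it also held noncoding or clone-named symbols, and for 3 it held another protein-coding gene. Those 3 were Csf1r with Hmgxb3, Cx3cr1 with Csrnp1, Gorasp1, Ttc21a, Wdr48 and Xirp1, and Ms4a1 with Ms4a5 and Ms4a12. Fragments at these 3 loci cannot be assigned to the marker. With only loci of 1 symbol, 9 of 37 markers were detected, against 34.7% of all 21616 protein-coding symbols. Both shares count genes at shared loci as not detected, so they also depend on how many genes lie at such loci. With loci that hold no other protein-coding gene, a choice made after seeing the data, it was 13. The share of all protein-coding symbols detected at such loci was not computed, so counts at these loci, here and below, stand without a background.

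**Figure D2:**
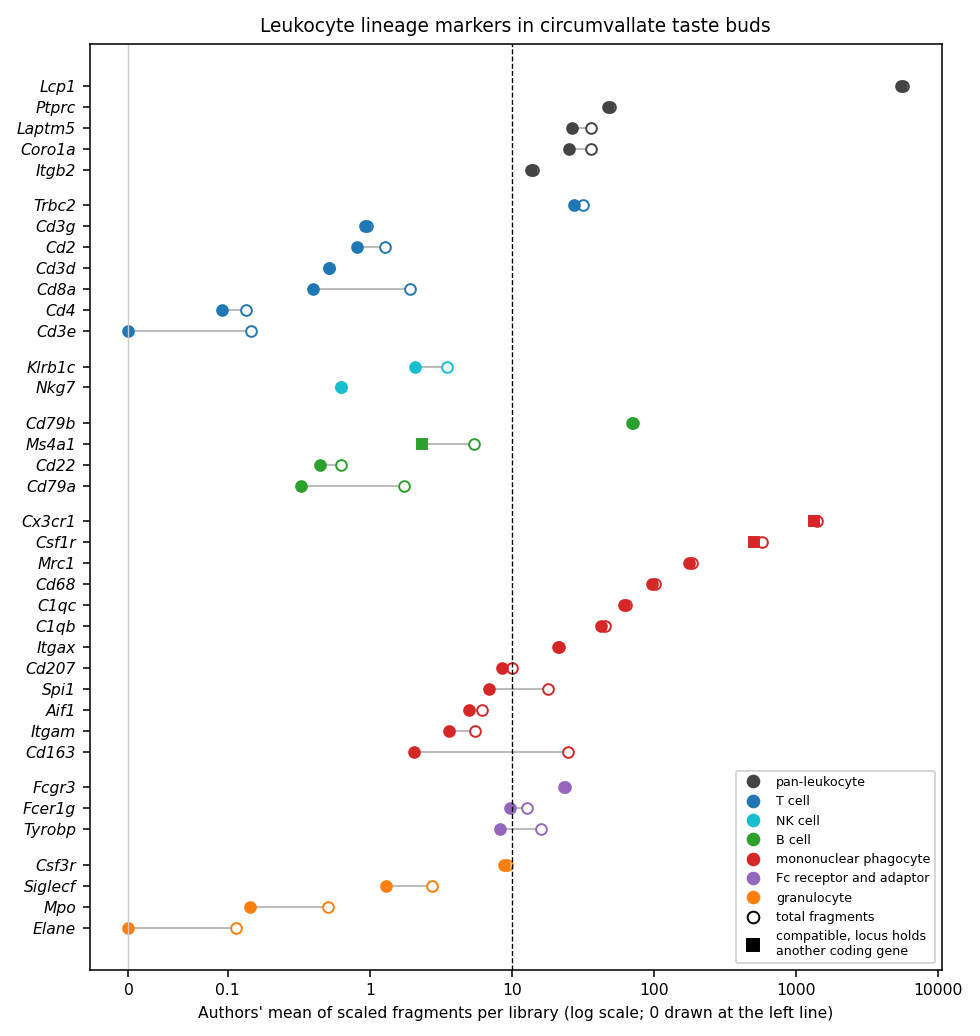
Authors' mean of scaled fragments per library (log scale) for each of the 37 markers, grouped by lineage. Filled symbols are compatible fragments, squares where the locus holds another coding gene, open circles are total fragments, and the dashed line marks 10 fragments; 0 is drawn at the left line. Lcp1 stands far to the right of every other marker, and most T cell genes lie left of 1 fragment.

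Among pan-leukocyte genes, Lcp1 stood far above the rest. Lcp1, which encodes the actin-bundling protein L-plastin, had 5484 compatible and 5689 total fragments. Its CV was 0.122, and its locus (chromosome 14, 75131101 to 75230842, build GRCm38, plus strand) is shared with the noncoding symbols Gm15628 and Gm15629. Ptprc, which encodes CD45, had 47.4 fragments with a standard deviation of 101 and a CV of 2.14, on the minus strand of chromosome 1 (138062861 to 138175708) at a locus with 1 clone-named symbol. Lcp1 was thus abundant and even within the sets, while the standard deviation of Ptprc exceeded its mean. Laptm5, a lysosomal membrane protein of blood cells, had 26.5 fragments with a CV of 0.860. Coro1a, the actin regulator coronin 1A, had 25.4 with a CV of 0.961, and Itgb2, the shared beta 2 integrin chain, had 13.6 with a CV of 1.48.

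Per exon length the gap between Lcp1 and the other pan-leukocyte genes remained. On the scale of compatible fragments per kb of reference exons, Lcp1 had 577, Coro1a 9.13, Laptm5 6.98, Itgb2 4.44 and Ptprc 2.59. Among 7514 detected single-gene protein-coding symbols the median was 154 per kb, so Lcp1, at the 80.1 percentile, was alone above it among these 5. The annotated exons of Ptprc add up to 18313 bases, far more than its longest transcript of 5740 bases. With the longest transcript as length, Lcp1 had 1383, Coro1a 14.5, Laptm5 10.2, Ptprc 8.26 and Itgb2 4.56 fragments per kb, so that Itgb2 and not Ptprc was lowest. The ratio of Lcp1 to Ptprc per kb was 223 with all reference exons of each gene and 167 with the longest transcripts.

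Promoters of Lcp1 and Ptprc are shown because these genes had the lowest and the highest CV of the pan-leukocyte genes. The RefSeq table for GRCm38.p6 holds promoters, from 250 bases before to 50 after an annotated start, for 28 of the 37 markers. Capitals mark AGGAAGT or its reverse complement ACTTCCT, a core that ETS family factors such as PU.1 (the product of Spi1) are known to bind, searched on both strands. Each of these genes has more than 1 annotated start; 1 window each is printed, the Lcp1 window at chr14:75130873-75131172 (plus strand) and the Ptprc window at chr1:138175256-138175555 (minus strand).
Lcp1: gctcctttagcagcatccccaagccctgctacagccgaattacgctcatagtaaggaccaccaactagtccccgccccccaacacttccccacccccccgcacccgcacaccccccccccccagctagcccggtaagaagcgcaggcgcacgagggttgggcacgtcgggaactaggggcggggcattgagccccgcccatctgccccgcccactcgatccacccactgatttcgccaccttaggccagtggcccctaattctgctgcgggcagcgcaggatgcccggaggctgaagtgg
Ptprc: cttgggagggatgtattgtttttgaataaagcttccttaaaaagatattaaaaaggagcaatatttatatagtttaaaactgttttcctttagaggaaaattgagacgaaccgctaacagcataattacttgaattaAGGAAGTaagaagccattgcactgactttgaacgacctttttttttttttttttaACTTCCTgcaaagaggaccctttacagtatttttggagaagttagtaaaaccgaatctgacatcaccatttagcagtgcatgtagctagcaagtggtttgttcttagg
The Ptprc window holds the core on both strands, and the Lcp1 window holds no match. This core occurs in 9.35% of all 32851 promoters listed. Among 32 promoters of the markers 10 do, belonging to C1qb, C1qc, Cd3d, Cd3e, Cd79a, Elane, Mpo, Mrc1 and Ptprc. These include genes at 0 fragments as well as detected ones, and a match of letters is not a bound site. The longer GAGGAAGT, which overlaps this core, occurred at C1qc, Elane and Mpo and in 3.2% of all promoters.

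Mononuclear phagocyte genes were the most widely detected lineage-restricted group, with 7 of 12, against 67.5% of protein-coding symbols. Without the loci of Csf1r and Cx3cr1, which hold other protein-coding genes, it was 5 of 12. At loci without another protein-coding gene, Mrc1, the mannose receptor CD206 of tissue macrophages, was highest with 177 fragments (chromosome 2, 14229392 to 14332057) and a CV of 0.311. Cd68, a lysosomal glycoprotein of macrophages, had 96.6 fragments (chromosome 11, 69664213 to 69666153) and a CV of 0.350, where the median CV of 1040 loci of 50 to 100 fragments was 0.513. Both had lower CVs than Ptprc or Itgax. Per kb the order turned, with 76.8 for Cd68 and 27.8 for Mrc1. Mir511 lies within the Mrc1 locus and was counted with it.

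Genes of complement C1q, the recognition unit of the classical pathway that tissue macrophages make, were found at similar levels. C1qc had 61.7 fragments with a CV of 0.696 and C1qb had 42.6 with a CV of 0.811; C1qa, their neighbour on chromosome 4, was outside the chosen markers and had 48.8 with a CV of 0.790. Per kb of reference exons these were 31.9 for C1qc, 39.2 for C1qb and 46.9 for C1qa, which for C1qc became 51.3 with the longest transcript as length. No difference among them exceeded the authors' standard deviations. Those describe the spread of single libraries within sets and not the error of a mean, so equal levels cannot be read from this. The proteins assemble from A, B and C chains together, and the genes lie next to each other at 136880129 to 136898803 on the minus strand. Promoters of both markers are shown because the genes are neighbours at like levels; capitals mark the same ETS core, and the windows are chr4:136886151-136886450 and chr4:136892865-136893164.
C1qb: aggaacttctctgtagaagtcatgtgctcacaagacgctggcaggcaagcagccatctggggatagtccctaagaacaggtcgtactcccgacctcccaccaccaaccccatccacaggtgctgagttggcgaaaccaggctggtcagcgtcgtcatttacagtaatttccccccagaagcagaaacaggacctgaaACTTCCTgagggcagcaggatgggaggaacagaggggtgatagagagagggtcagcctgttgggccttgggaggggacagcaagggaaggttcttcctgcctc
C1qc: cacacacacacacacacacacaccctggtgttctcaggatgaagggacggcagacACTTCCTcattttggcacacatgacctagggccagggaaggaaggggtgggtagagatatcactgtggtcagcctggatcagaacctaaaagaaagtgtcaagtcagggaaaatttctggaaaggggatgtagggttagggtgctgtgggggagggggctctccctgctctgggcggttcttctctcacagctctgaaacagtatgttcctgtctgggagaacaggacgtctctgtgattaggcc
Each window holds the core once, on the reverse strand.

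The other mononuclear phagocyte genes without a coding neighbour at their locus were lower. Itgax, the integrin chain CD11c of dendritic cells and some macrophages, had 21.3 fragments with a CV of 1.15. Cd207, which encodes langerin of Langerhans cells, was found at 8.54 compatible and 10.02 total fragments (chromosome 6, 83671207 to 83677857), and its CV was 1.78. Its detection therefore turned on which fragments were counted. Spi1, the transcription factor PU.1 of myeloid and B cells, had 6.88 fragments (18.0 in total), Aif1, the actin-binding protein IBA1 of macrophages, had 4.97 and Itgam, the integrin chain CD11b, had 3.62 (5.47 in total). Cd163, a haemoglobin scavenger receptor of tissue macrophages, had 2.04 (24.7 in total). None of Spi1, Aif1, Itgam and Cd163 reached 10 compatible fragments.

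Csf1r and Cx3cr1 had the highest values in this lineage, but at loci with other protein-coding genes. The locus with Csf1r, the receptor that macrophages need for survival, had 511 fragments with a CV of 0.207. The locus with Cx3cr1, the fractalkine receptor of resident macrophages, had 1350.1 fragments with a CV of 0.176. Reference exons of Cx3cr1 make up 3742 of 24236 exonic bases there. How much of either value belongs to the marker could not be determined, and without both loci 5 mononuclear phagocyte genes were detected. Their lineage summed to 425 fragments without these loci and to 2286 with them.

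Fc receptor and adaptor genes, which macrophages, NK cells and granulocytes share, sat near the detection limit. Fcgr3, a receptor for immunoglobulin G, had 23.4 fragments with a CV of 0.993. Fcer1g, the signalling chain that partners it, had 9.76 with a CV of 0.796, and Tyrobp, the adaptor DAP12, had 8.31 with a CV of 0.977. By total fragments all 3 were detected, Tyrobp with 16.1 and Fcer1g with 12.9. Compatible fragments per kb were 13.5 for Fcgr3, 11.2 for Fcer1g and 14.7 for Tyrobp. Total fragments per kb were 13.7 for Fcgr3, 14.7 for Fcer1g and 28.5 for Tyrobp. The 3 genes thus lay close together by compatible fragments alone, and equal levels cannot be read from this.

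T cell genes were nearly absent except for Trbc2. Trbc2, a constant segment of the T cell receptor beta chain, reached 27.4 compatible and 31.6 total fragments. Its CV was 0.361, and it lies on chromosome 6 (41546730 to 41548352). Cd3g had 0.919 compatible fragments, Cd2, an adhesion receptor, had 0.813 (1.28 in total), Cd3d had 0.520, Cd8a had 0.396 (1.92 in total) and Cd4 had 0.0907. Cd3e was listed at 0 compatible fragments and 0.145 total, where 3 fragments over all libraries would give a mean of 0.143, a limit that covers counting error only. Added up over 21 libraries, the scaled fragments of Cd4 came to 1.90, those of Cd3d to 10.9 and those of Trbc2 to 576. The CD3 chains are needed for any T cell receptor at the cell surface, and CD4 and CD8 mark the helper and cytotoxic branches.

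Trbc2 also differed from its receptor partners per kb. It had 39.6 compatible fragments per kb, against 1.66 for Trac, the constant segment of the alpha chain, 0.858 for Cd3g and 0.393 for Cd3d. The ratio to Trac was 23.9 by compatible and 13.3 by total fragments. At least 61.5% of the 14.4 scaled fragments of Trac came from 1 library, so this ratio turns on that library. For Cd3g the limit was 49.6% of 19.3 scaled fragments, and for Cd3d it was 13.8% of 10.9. Trbc1, the near-identical alternative beta segment, had 4.76 fragments, 6.36 per kb, with a CV of 0.415. Near-identical copies can share reads, so the split between Trbc2 and Trbc1 is uncertain. The beta segments varied little within the sets: relative to the variance the authors fitted at that level, theirs had a log2 ratio of −2.31 for Trbc2, the lowest of the 15 detected markers, and −3.18 for Trbc1.

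NK cell genes lay below detection. Klrb1c, the receptor NK1.1, was found at 2.09 compatible and 3.50 total fragments (CV 2.02). Nkg7, a granule protein of NK and cytotoxic T cells, had 0.629 fragments with a CV of 4.24. That CV is the value obtained when 1 library of a set of 7 holds every fragment, so Nkg7 was seen in 1 of 21 libraries, with 13.2 scaled fragments in all. The table does not say which library this was.

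B cell genes were split within the antigen receptor complex. Cd79b, a signalling chain of the B cell receptor, was present at 70.5 compatible and 70.9 total fragments. Its CV was 0.431, on chromosome 11 at 106311341 to 106314762. Cd79a, with which it forms a dimer, had 0.330 compatible and 1.74 total fragments (chromosome 7, 24897381 to 24902197), and its compatible scaled fragments came to 6.92 over all libraries. Per kb this was 49.3 for Cd79b and 0.226 for Cd79a, a ratio of 218 by compatible fragments and of 41.5 by total fragments. Cd79a had a CV of 3.05, and at least 49.2% of its compatible fragments came from 1 library, so its level and this ratio depend on that library. Ms4a1, which encodes CD20, lay at a locus with 2.35 compatible and 5.38 total fragments, and Cd22, an inhibitory receptor, had 0.450. Cd79b was thus the only detected member of the 4.

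**Figure D3:**
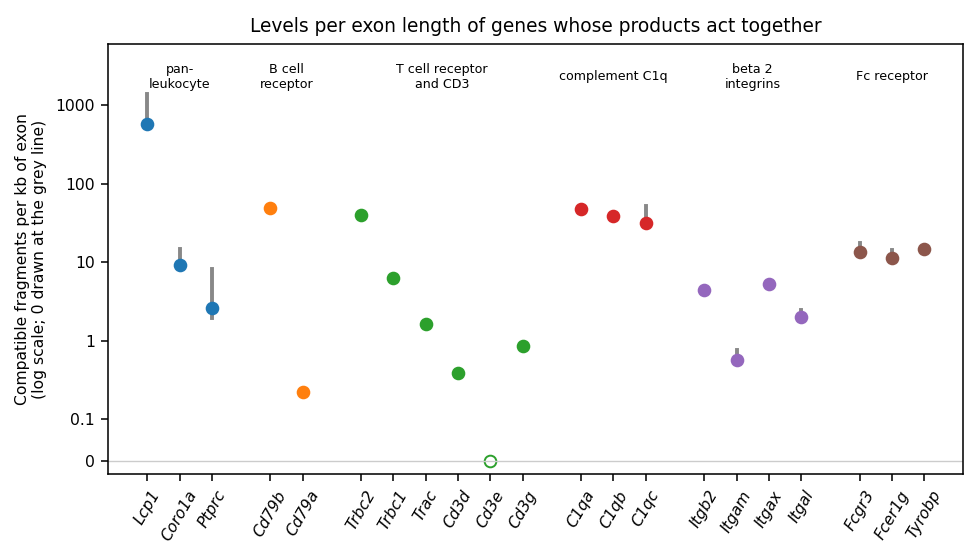
Compatible fragments per kb of reference exons (points, log scale) for genes whose products act together, Trbc1, Trac, C1qa and Itgal being outside the 37 markers; grey lines span the values with all merged exons or the longest transcript as length. C1q genes and Fc receptor genes lie close together, while Cd79b and Cd79a, Trbc2 and the CD3 genes, and Lcp1 and Ptprc lie far apart.

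Beta 2 integrins pair the Itgb2 chain with different alpha chains. Per kb of reference exons Itgb2 had 4.44 compatible fragments, Itgax 5.27, Itgam 0.568 and Itgal, the alpha chain of LFA-1, 2.01. Itgax and Itgb2 differed by less than the authors' standard deviations, which again describe single libraries and not the error of a mean. The ratio of Itgb2 to Itgam was 7.81, or 6.05 with the longest transcripts and 5.41 by total fragments. Itgam had 3.62 fragments with a CV of 1.26. The difference between Itgb2 and Itgam also lay within the standard deviation of Itgb2, 20.1 fragments at a mean of 13.6.

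Granulocyte genes were lowest among the myeloid groups. Csf3r, the receptor for granulocyte colony-stimulating factor, had 8.80 fragments with a CV of 0.813. Siglecf, a lectin of mouse eosinophils that intestinal tuft cells also make, had 1.29 with a CV of 2.53 (2.75 in total). The neutrophil granule genes Mpo and Elane had 0.143 and 0 compatible fragments, and 0.512 and 0.114 in total. The total fragments of Mpo summed to 10.8 over all libraries and those of Elane to 2.40.

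Variation between libraries, which is larger at low levels, was high for many leukocyte markers. The median CV of the 15 detected markers was 0.696, against 0.231 for all 13467 detected loci, whose median level was 514 fragments. The authors' variance was also compared with their fitted variance, a curve of variance against mean. It was exceeded by 8 of 15 detected markers, against 26.1% of detected loci, with a median log2 ratio of 0.16 for the markers and −0.65 for all detected loci. That ratio itself falls with level, and its median was −0.27 for the 2108 loci of 10 to 50 fragments. In that range 7 of 8 markers lay above the curve, against 39.1% of loci. The 8 detected markers above it were Ptprc at 3.29, Itgb2 at 1.22, Itgax at 0.82, Fcgr3 at 0.48, Coro1a at 0.45, C1qb at 0.40, C1qc at 0.31 and Laptm5 at 0.16. Of 7 markers above 50 fragments, 1 lay above the fitted variance, C1qc, against 23.6% of such loci. With a mean of at least 1 fragment it was 11 of 26, against 29.5%, and at detected loci of 1 symbol 6 of 9, against 27.6%.

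The markers below the curve included the most abundant ones and the receptor chains Cd79b and Trbc2. Their log2 ratios were −0.38 at the Cx3cr1 locus, −0.80 for Lcp1, −0.87 at the Csf1r locus, −0.88 for Mrc1, −0.94 for Cd79b, −1.20 for Cd68 and −2.31 for Trbc2. Pan-leukocyte genes other than Lcp1 all lay above the curve, and Lcp1 below it. The direction for Lcp1 and Cx3cr1 depended on the yardstick: against a running median over loci of like level their log2 ratios were 0.13 and 0.37, and 10 of 15 detected markers exceeded it, against 50% of loci.

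**Figure D4:**
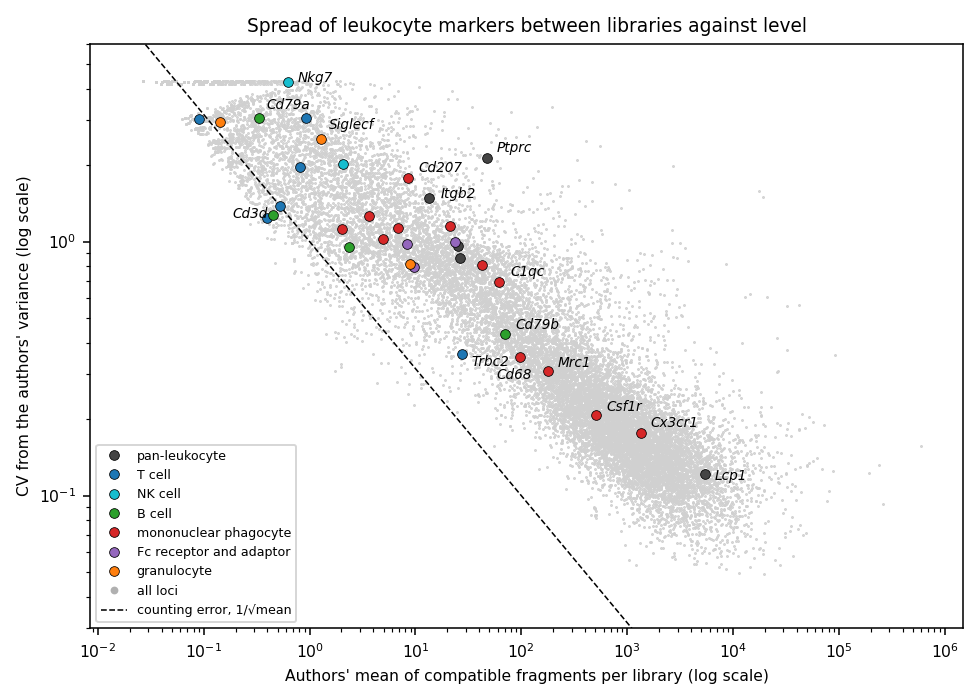
CV from the authors' variance against the mean of compatible fragments (both log scales) for the markers (coloured by lineage) and all loci (grey); the dashed line is the CV of counting error alone. Ptprc lies at the upper edge of the cloud at its level, Trbc2 near its lower edge, and Lcp1 within it at far higher level.

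The variance also limits how evenly fragments can have been spread. The leading library's share of a gene's scaled fragments cannot be smaller than the sum of squared shares, and 1 of 21 equal libraries would hold 4.76%. For Ptprc at least 26.5% of fragments came from 1 library, for Siglecf 35.3%, for Klrb1c 24.1% and for Cd207 19.9%. For Trbc2, Cd79b, Cd68 and Mrc1 this limit was between 5.22% and 5.65%; it is a lower limit, and the true leading share may be higher. Among the 22 markers with means of 1 to 100 fragments, 3 had a limit of at least 20%, against 14.3% of 5928 loci in that range. Which library led is not given by the table, so whether Ptprc, Siglecf and Klrb1c were led by the same library was not tested.

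**Figure D5:**
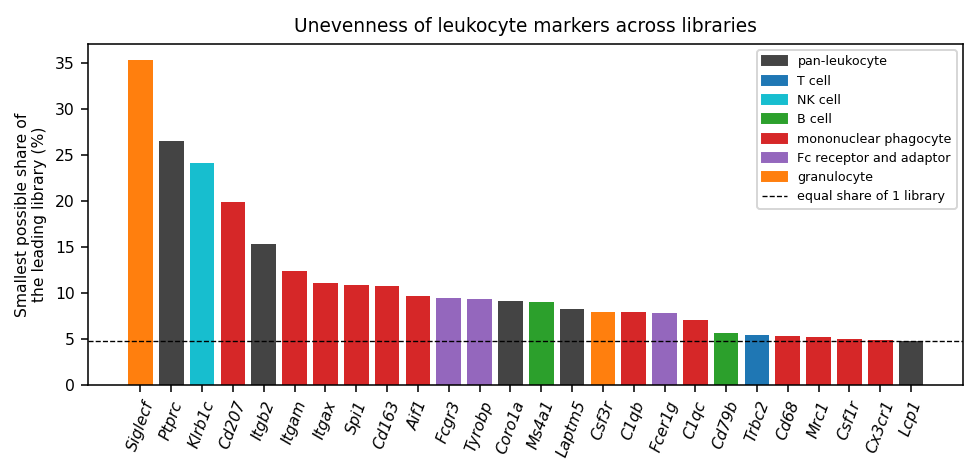
Smallest possible share (%) of the leading library in a gene's scaled compatible fragments, for the 26 markers with a mean of at least 1 fragment, coloured by lineage; the dashed line is an equal share. Siglecf, Ptprc and Klrb1c have the highest bars, and Lcp1, Cx3cr1 and Csf1r lie at the line.

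Compatible and total fragments gave the same picture for most markers. With 10 total fragments 20 of 37 markers were detected, against 72.4% of protein-coding symbols; the 5 gained were Spi1, Cd163, Cd207, Tyrobp and Fcer1g. Cd163 had 24.7 total against 2.04 compatible fragments, so 8.26% of its fragments matched annotated transcripts. Spi1 had 18.0 total against 6.88 compatible, or 38.2%. These were the 2 markers of at least 10 total fragments with under 50% compatible, a state found in 21.5% of such loci. For Ptprc, Cd79b, Itgax, C1qc and Fcgr3 between 96.6% and 99.4% was compatible.

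Of 108 further leukocyte genes 106 were measured, and detection again differed between lineages. Detected were 15 of 20 other pan-leukocyte genes, 10 of 16 macrophage and monocyte genes, 4 of 10 dendritic and Langerhans cell genes, 8 of 19 T cell genes, 2 of 12 B and plasma cell genes, 1 of 10 NK and innate lymphoid genes, 3 of 13 granulocyte genes and 1 of 6 mast cell genes, where 67.5% of protein-coding symbols were. At loci without another protein-coding gene it was 9 pan-leukocyte, 4 T cell and 2 granulocyte genes, with the other counts unchanged. The detected mast cell gene, Cpa3, had 18.0 fragments with a CV of 2.99, at least 47.3% of them from 1 library. At single-gene loci the ends of each range were as follows. Pan-leukocyte genes ran between Vav1, a guanine nucleotide exchange factor, with 1153 fragments and Hcls1 with 5.24. Macrophage genes ran between Lyz2, a lysozyme, with 33435 and Timd4, a receptor of resident macrophages, with 0.0495 (1.93 in total). Dendritic cell genes ran between Batf3, a transcription factor, with 26.8 and Siglech, a lectin of plasmacytoid cells, with 0.332.

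The T cell and the B and plasma cell lists had high members beside others at 0. T cell genes ran between Cd5, a scavenger receptor family protein, with 176 fragments and Cd6 at 0. The lowest NK and innate lymphoid gene was Ncr1, an activating receptor of NK cells, at 0 compatible and 1.92 total fragments. For B and plasma cell genes the ends were Spib, an ETS factor of B cells, with 1166 and Tnfrsf17 at 0, although Tnfrsf17 had 32.9 total fragments. Granulocyte genes ran between S100a9, a calcium-binding protein of neutrophils, with 117 and Ly6g at 0, at least 36.8% of the S100a9 fragments being from 1 library (CV 2.59), and mast cell genes between Ms4a2 with 2.44 and Cma1 with 0.0944. Of the T cell genes detected, 1 lay at a locus without another symbol, and the Tcf7 locus held 18 other symbols.

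Among the other pan-leukocyte genes, steady and uneven members stood side by side, as for Lcp1 and Ptprc. The examples in this paragraph were chosen after their values were seen. Ptpn6, the phosphatase SHP-1, had 1270.1 fragments with a CV of 0.132, and Vav1 had a CV of 0.194. Rac2, a leukocyte GTPase, had 21.1 fragments with a CV of 2.06, and Arhgdib, an inhibitor of small GTPases, had 18.2 with a CV of 1.44. The log2 ratios of variance to the fitted curve were −1.26 for Ptpn6, −0.23 for Vav1, 2.51 for Rac2 and 1.37 for Arhgdib. Against the running median they were −0.58 for Ptpn6, 0.50 for Vav1, 2.84 for Rac2 and 1.61 for Arhgdib. The direction for Vav1 thus depended on the yardstick. Of the 44 further leukocyte genes detected, 25 lay above the fitted variance, against 26.1% of detected loci. In the range of 10 to 50 fragments it was 12 of 17, against 39.1% of loci. Of the 44 genes, 33 lay at loci without another protein-coding gene, and neither count was repeated for such loci alone.

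Markers of other cells that the tissue could hold were measured alike. Tuft cell genes, a chemosensory epithelial type that shares genes with taste cells, were detected for 9 of 10, endothelial genes for 4 of 6, fibroblast genes for 2 of 6, skeletal muscle genes for 2 of 5 and erythrocyte genes for 1 of 5, where 67.5% of protein-coding symbols were. At loci without another protein-coding gene 5 tuft cell, 3 endothelial, 2 fibroblast, 1 skeletal muscle and 0 erythrocyte genes were detected. The endothelial counts include Kdr, with 10.7 fragments and a CV of 4.04. At least 82.6% of the Kdr fragments came from 1 library, so its detection rests on that library. At single-gene loci endothelial genes ran between Tek with 811 compatible fragments and Cdh5 with 0.0403, but Cdh5 had 209 total fragments. The lowest tuft cell gene was Gfi1b with 0.919 and a CV of 4.29. That CV is the value obtained when 1 library of a set of 8 holds every fragment, so Gfi1b was seen in 1 of 21 libraries. For fibroblasts the ends were Dcn with 364 and Col1a1 with 0.180, and for muscle Mylpf with 35.0 and Myh4 with 7.09. The lowest erythrocyte gene was Hbb-bt with 0.0575. The part of these cells in the leukocyte levels was not tested.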

How the data were processed

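RNA of 21 libraries was measured. Cells' RNA was copied from oligo(dT) primers per the labels' protocols, which can favour 3' ends and bear on levels per kb. Trimmomatic, FastQC, TopHat, Bowtie2, Cufflinks, Cuffdiff and GRCm38 are named per the submitters' processing notes, without order or settings. Values used are a signal that the authors computed, per the file headers: means and variances of scaled fragments, pooled over libraries. The depth of single libraries is not used here. Coding status came from GENCODE M21 by transcript identifier, matched for 97.6% of 102929 transcripts. Levels per kb divide by the union of reference exons of a symbol. The running median spans 201 loci. The steps on variance were tested on simulated libraries built in sets of 8, 7 and 6. This checks the arithmetic and cannot show that the authors' variance was formed in that way.

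The 37 markers and all lists were chosen with earlier results of these data known. Named were all markers and, per further list, the highest and lowest single-gene locus; any further gene was chosen once its values had been seen. Of the list genes, 2 were matched by an older symbol and 3 had no symbol in the annotation and were not analysed here; the highest gene of 3 further lists is not reported here. Alternatives were other detection levels, total fragments, loci of 1 symbol, other lengths and the running median. Loci with no other protein-coding gene were an alternative chosen after seeing the data, as were the range of 10 to 50 fragments for the variance, the limit on the leading library and the reading of libraries seen alone. Software was Python 3.11.15 with pandas 2.3.3, numpy 2.4.6 and, for plots, matplotlib 3.10.9.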

Additional observations from a re-analysis of the deposited data

How the results depend on the processing

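No paired analysis was possible because the table gives 1 mean over all libraries and no value per library; leaving out a library was not possible for the same reason. The count of detected markers, 15 of 37, was 26 at a mean of 1 fragment, 7 at 50 fragments and 9 at loci of 1 symbol, while total fragments (20) and loci without another protein-coding gene (13) stayed within 1.5 times. By lineage, a mean of 1 fragment gave 1 NK cell, 2 B cell, 12 mononuclear phagocyte, 3 Fc receptor and 2 granulocyte genes. A mean of 50 gave 1 pan-leukocyte, 0 T cell and 0 Fc receptor genes. Loci of 1 symbol gave 3 pan-leukocyte, 4 mononuclear phagocyte and 0 Fc receptor genes, and total fragments gave 3 Fc receptor genes. Of 21 pairs of lineages ordered by median level, 20 kept their order by total fragments, 17 per kb and 16 at loci of 1 symbol. Markers above the fitted variance numbered 8 of 15, or 1 of 7 at 50 fragments, 11 of 26 at 1 fragment, 7 of 8 between 10 and 50 fragments, 6 of 9 at loci of 1 symbol and 10 of 15 by the running median, which 50% of loci exceed by construction. The median CV ran between 0.311 at 50 fragments and 0.955 at 1 fragment. The means of 11 markers under 1 fragment rest on a few fragments, so neither presence nor absence of their cells can be read from them; the cause of the moves was not tested.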
